A study of Mus musculus with 33 samples.

Results

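Cxcl9, Cxcl10 and Cxcl11 encode the chemokines that bind the receptor CXCR3, and they were described here across cultured mouse spleen cells given a CpG oligodeoxynucleotide (ODN), a control ODN or no ODN. The members were every probe whose gene symbol in the platform annotation is Cxcl9, Cxcl10 or Cxcl11. This gave 3 genes with 1 probe each, of 9672 named genes with values. A value is present for Cxcl9 on 32 of 33 arrays, for Cxcl10 on 31 and for Cxcl11 on 32.

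The study asked which genes respond to CpG motifs in unsorted spleen cells. Cells from female BALB/c mice, 2 months old, were cultured at 37 C for 2, 4 or 8 h in 3 ways: with CpG ODN, an equimolar mix of ODN 1555 and 1466 at 1 uM; with control ODN, a mix of ODN 1612 and 1471 without CpG motifs at 1 uM; or in medium alone. There were 4 arrays per treatment at 2 h and at 4 h and 3 at 8 h, described by the submitters as independent experiments; the number of mice behind each culture is not given in the sources used here, and p-values measure the spread between these arrays. Every array set Cy5-labelled spleen cell cDNA against Cy3-labelled cDNA of Universal Mouse Reference RNA, a pool of B-lymphocyte, embryo, kidney, liver, macrophage, mammary gland, muscle, skin, testis and T-lymphocyte RNA. A level below is therefore the log2 ratio of spleen cells to this reference with the array's median set to 0. Levels of different genes are set against each other only as medians of cell type marker lists. The deposited values do not state their log base; base 2 was read from their range, and every fold rests on that reading.

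CXCL9, CXCL10 and CXCL11 draw activated T cells and natural killer cells that carry CXCR3 to sites of infection. Interferons are known to induce all of them: CXCL9 is known chiefly as a target of interferon-gamma, while CXCL10 also answers type I interferon and NF-kB. Unmethylated CpG DNA is sensed by the endosomal receptor TLR9, which B cells and dendritic cells carry in the mouse spleen, and signals through MyD88 to NF-kB and to IRF factors. Monocytes, macrophages and dendritic cells are among the known makers of these chemokines.

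The genes lie side by side on chromosome 5 of RefSeq's GRCm38.p6 assembly, which is of strain C57BL/6J. Cxcl9 occupies chr5:92321331-92328079, Cxcl10 chr5:92346638-92348889 and Cxcl11 chr5:92359544-92363296. RefSeq annotates Cxcl11 in this assembly as a transcribed pseudogene. C57BL/6 mice are known for a frameshift in Cxcl11 and lack its protein, whereas the cells studied here were BALB/c.

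The promoter windows of Cxcl9 and Cxcl10, from 250 bases before to 50 after the start, are shown because Cxcl10 had the largest and Cxcl9 the smallest 8 h difference of the ligands, below. Both genes run on the minus strand, and the windows, from RefSeq on GRCm38.p6, are chr5:92328030-92328329 and chr5:92348840-92349139, printed 5′ to 3′. Cxcl11 had no window in the table used. Capitals mark matches to any of 5 motifs, searched on both strands.
Cxcl9: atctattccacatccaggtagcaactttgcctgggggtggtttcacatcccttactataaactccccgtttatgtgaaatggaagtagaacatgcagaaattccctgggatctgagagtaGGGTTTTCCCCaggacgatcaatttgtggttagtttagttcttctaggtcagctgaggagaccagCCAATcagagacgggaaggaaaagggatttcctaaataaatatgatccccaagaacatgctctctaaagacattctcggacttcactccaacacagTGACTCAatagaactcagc
Cxcl10: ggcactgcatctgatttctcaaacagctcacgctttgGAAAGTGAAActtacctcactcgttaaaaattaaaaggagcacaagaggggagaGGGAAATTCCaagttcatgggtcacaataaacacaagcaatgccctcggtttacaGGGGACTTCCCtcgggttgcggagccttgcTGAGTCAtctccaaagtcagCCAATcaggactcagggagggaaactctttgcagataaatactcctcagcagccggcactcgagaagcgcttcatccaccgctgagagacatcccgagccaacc

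The core of the interferon-stimulated response element, searched as GAAA, any 2 bases and GAAA, matched at -213 to -204 of Cxcl10 and nowhere in the Cxcl9 window, and 3.44% of 32851 windows of the same length held it. The NF-kB site, searched as GGG, any 5 bases and CC, matched at -159 to -150 and, in overlapping matches, at -104 to -94 of Cxcl10, and in overlapping matches at -130 to -120 of Cxcl9; 50.8% of windows held it. TGANTCA, an AP-1 site, lay at -74 to -68 of Cxcl10 and at 32 to 38 of Cxcl9, against 7.81% of windows. TTCNNNGAA, the gamma-activated site, matched in neither window and was in 8.3% of all. CCAAT, in 37.4% of windows, began at -54 in Cxcl10 and at -65 in Cxcl9, inside the longest run of bases the windows share, CAGCCAATCAG. A match of letters is a description of the sequence and no evidence of binding.

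At 8 h the CXCR3 ligands were among the most strongly raised genes in CpG ODN cultures. Cxcl10 was 31.2-fold, Cxcl11 25.7-fold and Cxcl9 7.03-fold higher than with control ODN. At 4 h Cxcl10 and Cxcl11 were higher by 2.59-fold and 1.81-fold, while Cxcl9 did not pass the test. At 2 h none of the 3 passed it.

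**Figure D1:**
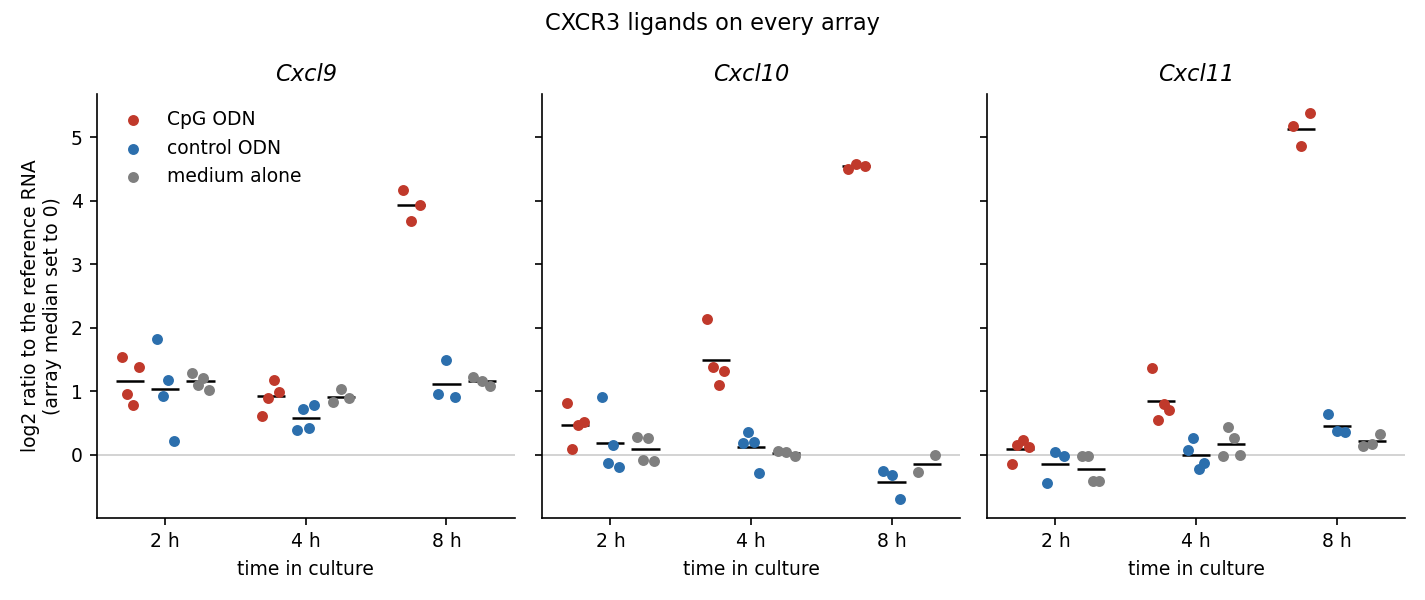
Log2 ratio to the reference RNA of Cxcl9, Cxcl10 and Cxcl11 on every array, by time in culture, with CpG ODN in red, control ODN in blue and medium alone in grey; points are arrays and black bars are group means. The CpG ODN arrays of 8 h stand clear of all other arrays in each panel, and those of 4 h stand above the control ODN and medium arrays of that time for Cxcl10 and Cxcl11.

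Cxcl10 had log2 ratios of 0.82, 0.09, 0.48 and 0.51 with CpG ODN at 2 h, against 0.92, -0.13, 0.16 and -0.20 with control ODN and 0.29, -0.08, 0.27 and -0.10 in medium. The groups overlapped, and the highest of these 12 arrays was a control ODN array. At 4 h its ratios were 2.13, 1.39, 1.11 and 1.33 with CpG ODN, against 0.19, 0.36, 0.21 and -0.28 with control ODN and 0.06, 0.04 and -0.01 in medium. Every CpG ODN array was above every other array of that time. At 8 h the 3 CpG ODN arrays gave 4.50, 4.59 and 4.54, against -0.26, -0.32 and -0.69 with control ODN and -0.28 and -0.01 on the 2 measured medium arrays. The lowest CpG ODN array lay 4.51 above the highest of the others. Such gaps between groups are descriptions here and for the other ligands, since the share of all genes with a gap was not counted.

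Over CpG ODN and control ODN cultures, Cxcl10 differed by 0.29 ± 0.23 at 2 h (log2 difference ± SE; adjusted p = 1), by 1.37 ± 0.23 at 4 h (95% interval of the fold 1.88 to 3.56, adjusted p = 0.00175) and by 4.96 ± 0.26 at 8 h (interval 21.6 to 45.1, adjusted p = 5.25e-14). The 8 h difference ranked 1 of 9494 genes tested and the 4 h difference 17 of 9630. Against medium the differences were 0.38 ± 0.23, 1.46 ± 0.24 and 4.68 ± 0.29, with adjusted p of 0.908, 0.00193 and 2.37e-12. The comparisons with control ODN and with medium share the CpG ODN arrays. Without the other groups in the fit, the 4 h difference of Cxcl10 missed the threshold, with an adjusted p of 0.0838 against control ODN and 0.099 against medium.

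Cxcl11 had log2 ratios of -0.14, 0.15, 0.23 and 0.13 with CpG ODN at 2 h, against -0.44, 0.05 and -0.02 on the 3 measured control ODN arrays and -0.02, -0.03, -0.40 and -0.41 in medium. Of the 4 CpG ODN arrays 3 were above every other array of 2 h, by small margins. At 4 h the ratios were 1.36, 0.56, 0.80 and 0.70 with CpG ODN, against 0.07, 0.27, -0.22 and -0.13 with control ODN and -0.03, 0.44, 0.26 and -0.01 in medium. All 4 CpG ODN arrays were above the others, the lowest by 0.12. At 8 h they were 5.17, 4.86 and 5.39 with CpG ODN, against 0.64, 0.37 and 0.36 with control ODN and 0.13, 0.18 and 0.33 in medium. The gap between the groups was then 4.22.

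The difference of Cxcl11 between CpG ODN and control ODN was 0.23 ± 0.20 at 2 h (adjusted p = 1), 0.86 ± 0.18 at 4 h (fold interval 1.4 to 2.35, adjusted p = 0.0164) and 4.68 ± 0.21 at 8 h (fold interval 19.1 to 34.5, adjusted p = 9.45e-16, rank 3 of 9494). Against medium it was 0.31 ± 0.18 at 2 h (adjusted p = 0.908), 0.69 ± 0.18 at 4 h, which did not pass (adjusted p = 0.176), and 4.93 ± 0.21 at 8 h (adjusted p = 2.36e-16). The 8 h difference from medium ranked 1 of 9478. The 4 h call of Cxcl11 against control ODN was lost without any of 4 arrays: at 0.69 (adjusted p = 0.129) without repeat 1 and 0.88 (adjusted p = 0.0565) without repeat 3 of CpG ODN, and at 0.79 (adjusted p = 0.121) without repeat 3 and 0.82 (adjusted p = 0.072) without repeat 4 of control ODN. It was also lost when the fit held the compared groups alone (adjusted p = 0.477).

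Cxcl9 was above its array's median on every measured array. At 2 h it was 1.54, 0.96, 0.78 and 1.38 with CpG ODN, against 1.82, 0.93, 1.18 and 0.22 with control ODN and 1.29, 1.11, 1.22 and 1.02 in medium. At 4 h it was 0.61, 0.90, 1.17 and 1.00 with CpG ODN, against 0.39, 0.73, 0.43 and 0.79 with control ODN and 0.83, 1.04 and 0.89 in medium. At both times the treatments overlapped, with 0 of 4 CpG ODN arrays at 2 h and 1 of 4 at 4 h above all others. At 8 h the values were 4.17, 3.69 and 3.94 with CpG ODN, against 0.95, 1.49 and 0.91 with control ODN and 1.23, 1.16 and 1.08 in medium, and all 3 CpG ODN arrays were above the rest by at least 2.19.

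The difference of Cxcl9 between CpG ODN and control ODN was 0.13 ± 0.23 at 2 h, 0.34 ± 0.23 at 4 h (adjusted p = 1 at both) and 2.81 ± 0.27 at 8 h (fold interval 4.82 to 10.2, adjusted p = 8.51e-09, rank 24 of 9494). Against medium it was 0.01 ± 0.23 at 2 h, 0.00 ± 0.25 at 4 h and 2.78 ± 0.27 at 8 h, where it passed (adjusted p = 1.15e-08). The 95% interval of the 4 h difference from control ODN reached 0.81, against a measured 4 h difference of 0.86 for Cxcl11.

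Read against the background, 0 of 3 members passed at 2 h, when 0.043% of all genes tested passed in the comparison of CpG ODN with control ODN. At 4 h 2 of 3 passed, both higher, against 0.384% of all genes. At 8 h 3 of 3 passed, all higher, against 10% of all genes in either direction and 4.55% called higher. Against medium 0, 1 and 3 members passed at 2, 4 and 8 h, where 0.042%, 0.218% and 11.8% of all genes did. The median over all genes tested at 8 h was -0.12 against control ODN, so the members' differences stand beside a small downward shift of the bulk of genes.

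Between control ODN and medium none of the 3 genes passed at any time in the limma fit, and 0% of all genes tested passed in these comparisons; with the repeat number as a block 1 gene passed at 8 h, and no ligand did. The smallest adjusted p of a member was 0.999. The largest of the 9 differences in size were -0.33 ± 0.25 for Cxcl9 at 4 h, and -0.28 ± 0.29 for Cxcl10 and 0.24 ± 0.21 for Cxcl11 at 8 h. At an unadjusted p under 0.05, 229, 176 and 379 of all genes differed at 2, 4 and 8 h.

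**Figure D2:**
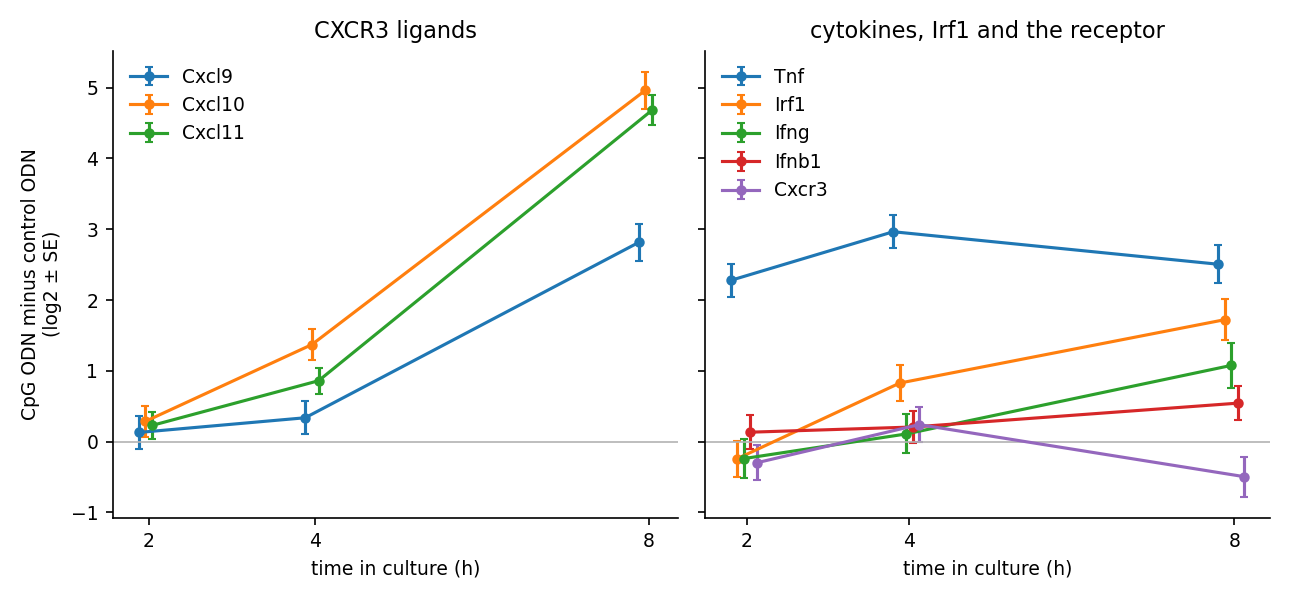
CpG ODN minus control ODN (log2, with SE bars) at 2, 4 and 8 h; on the left Cxcl9, Cxcl10 and Cxcl11, on the right Tnf, Irf1, Ifng, Ifnb1 and Cxcr3. The ligands stand near 0 at 2 h and between 2.81 and 4.96 at 8 h, while Tnf stands between 2.28 and 2.97.

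The size of the CpG ODN response grew between 4 h and 8 h for every member. From 4 h to 8 h the difference from control ODN grew by 3.82 ± 0.28 for Cxcl11 (adjusted p = 3.08e-10), by 3.59 ± 0.34 for Cxcl10 (adjusted p = 1.25e-07) and by 2.48 ± 0.35 for Cxcl9 (adjusted p = 6.98e-05), where 2.08% of all genes passed. From 2 h to 8 h all 3 members passed again, against 3.26% of all genes. Between 2 h and 4 h it grew by 1.09 ± 0.32 for Cxcl10, 0.63 ± 0.27 for Cxcl11 and 0.21 ± 0.33 for Cxcl9, none of which passed (adjusted p = 1 each); 0.0108% of all genes did.

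Within CpG ODN cultures, in comparisons over time that were added after the data had been seen, 8 h exceeded 4 h by 4.28 ± 0.20 for Cxcl11, a 19.5-fold rise and rank 1 of 9543 genes (adjusted p = 1.74e-15). Cxcl10 rose 8.3-fold over the same hours (adjusted p = 6.02e-10) and Cxcl9 8.05-fold (adjusted p = 6.77e-10), where 8.22% of all genes passed. From 2 h to 4 h Cxcl10 rose by 1.02 ± 0.23 (adjusted p = 0.0229) and Cxcl11 by 0.76 ± 0.18 (adjusted p = 0.0317), whereas Cxcl9 differed by -0.25 (adjusted p = 0.794), and 0.966% of all genes passed. Leaving out each of the 8 arrays in turn, the call of Cxcl10 was lost for 5 of them (differences of 0.80 to 1.14 over the 8) and that of Cxcl11 for 6 (0.59 to 0.86). Both calls were also lost when the fit held the compared groups alone (adjusted p = 0.142 for Cxcl10 and 0.21 for Cxcl11), and that of Cxcl11 without the arrays of a lower database number (adjusted p = 0.158). Without CpG ODN no member passed over time: between 2 h and 8 h, Cxcl10 differed by -0.61 ± 0.24 (adjusted p = 0.117), Cxcl11 by 0.59 ± 0.21 (adjusted p = 0.0709) and Cxcl9 by 0.08 (adjusted p = 0.897) with control ODN. In medium these differences were -0.24, 0.43 and 0.00, with adjusted p of 0.638, 0.15 and 0.996. The shares of all genes passing over those hours were 10.1% with control ODN and 14.6% in medium.

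Ordered by mean level over the 9 groups, CpG ODN at 8 h came highest for each gene and did not overlap the next group. For Cxcl10, CpG ODN at 4 h came next, at 1.49 ± 0.45 (SD, n = 4), clear of CpG ODN at 2 h at 0.47 ± 0.30 (SD, n = 4), and the remaining neighbours in the order overlapped. For Cxcl11, CpG ODN at 4 h, at 0.86 ± 0.35 (SD, n = 4), overlapped control ODN at 8 h, at 0.46 ± 0.16 (SD, n = 3), which did not overlap medium at 8 h, at 0.21 ± 0.10 (SD, n = 3). For Cxcl9 the 7 groups that followed CpG ODN at 8 h overlapped their neighbours from 1.17 ± 0.36 (SD, n = 4, CpG ODN at 2 h) to 0.92 ± 0.11 (SD, n = 3, medium at 4 h), and control ODN at 4 h was lowest, at 0.58 ± 0.21 (SD, n = 4). Over all control ODN and medium arrays, Cxcl9 ranged between 0.22 and 1.82 (median 1.02, n = 21), Cxcl10 between -0.69 and 0.92 (median -0.01, n = 20) and Cxcl11 between -0.44 and 0.64 (median 0.05, n = 21).

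Whether the ligands responded by unequal amounts was tested on the difference between 2 members on each array, with CpG ODN set against control ODN by a two-sided exact permutation test, over 3 pairs and 3 times. At 8 h the response of Cxcl10 exceeded that of Cxcl9 by 2.15 and that of Cxcl11 exceeded that of Cxcl9 by 1.87, without overlap of the arrays; p = 0.1 in both exact tests is the smallest that 3 against 3 arrays allow (adjusted p = 0.18). At 4 h the response of Cxcl10 exceeded that of Cxcl9 by 1.04, with an exact p = 0.0286, the smallest that 4 against 4 arrays allow, and that of Cxcl11 by 0.51, with an exact p = 0.0571 (adjusted p = 0.18 for each). At 8 h Cxcl10 and Cxcl11 differed in response by 0.28 (exact p = 0.2, adjusted p = 0.3). None of the 9 tests passed after adjustment. With these numbers of arrays none could have passed, so the tests cannot decide whether the responses were unequal.

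The ligands' levels were alike over all arrays, but not over the control ODN and medium arrays alone. Over all shared arrays Pearson's r was 0.93 for Cxcl10 with Cxcl11 (n = 30), 0.89 for Cxcl9 with Cxcl11 (n = 31) and 0.86 for Cxcl9 with Cxcl10 (n = 30). Over control ODN and medium arrays alone the same pairs gave -0.53 (n = 19), -0.15 (n = 20) and 0.29 (n = 19). These are descriptions over arrays that share treatments and times.

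Cxcr3, the receptor of all 3 chemokines, did not pass the test in any comparison of treatments. At 8 h its ratio was 1.39, 1.38 and 1.75 with CpG ODN, against 1.83, 1.83 and 2.35 with control ODN and 2.28, 1.90 and 2.56 in medium. The CpG ODN arrays were the lowest of that time, at -0.50 ± 0.28 from control ODN (adjusted p = 0.312) and -0.74 ± 0.28 from medium (adjusted p = 0.0897). Dpp4, the protease that trims the N terminus of these chemokines, differed by 0.42 ± 0.21 at 8 h from control ODN (adjusted p = 0.23). Ackr3, a scavenging receptor that binds CXCL11, differed by -0.71 ± 0.32 (adjusted p = 0.172). Of the 7 genes listed for the receptor and the handling of its ligands, 0 passed at any of the 3 times in the limma fit. At 2, 4 and 8 h, 0, 0 and 1 had an unadjusted p under 0.05. Of all genes tested, 213 of 9302, 305 of 9630 and 2104 of 9494 had such a p at these times.

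Of the other chemokines tested at 8 h, Ccl3 was the only gene called. Of 7 other CXC chemokines tested at 8 h, 0 passed in the limma fit and 3 had an unadjusted p under 0.05, where 2104 of 9494 genes had. The median difference of these 7 from control ODN was -0.74, against -0.12 over all genes. Cxcl2, which draws neutrophils, stood at 0.77 ± 0.30 at 4 h (adjusted p = 1) and at -0.97 ± 0.35 at 8 h (adjusted p = 0.073). Of 15 CC and other chemokines 1 rose, where 4.55% of all genes did: Ccl3, which draws monocytes and other leukocytes. Ccl3 passed at all 3 times: it was higher at 2 h by 1.61 ± 0.22 (adjusted p = 0.00011), by 2.33 ± 0.22 at 4 h (adjusted p = 5.26e-08) and by 2.04 ± 0.26 at 8 h (adjusted p = 1.29e-06). Of 12 other chemokine receptors 2 fell at 8 h, where 5.45% of all genes fell: Cxcr4, the receptor of CXCL12, by 1.56 ± 0.39 (adjusted p = 0.0101), and Ccr4, found on several helper T cell types, by 0.69 ± 0.21 (adjusted p = 0.0363). The call of Ccr4 was lost without any of the 6 arrays compared (adjusted p = 0.0603 to 0.114) and that of Cxcr4 without repeat 2 of CpG ODN (adjusted p = 0.0982). Ccr4 also lost its call with quantile normalization (adjusted p = 0.278) and with the compared groups alone (adjusted p = 0.0701).

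**Figure D3:**
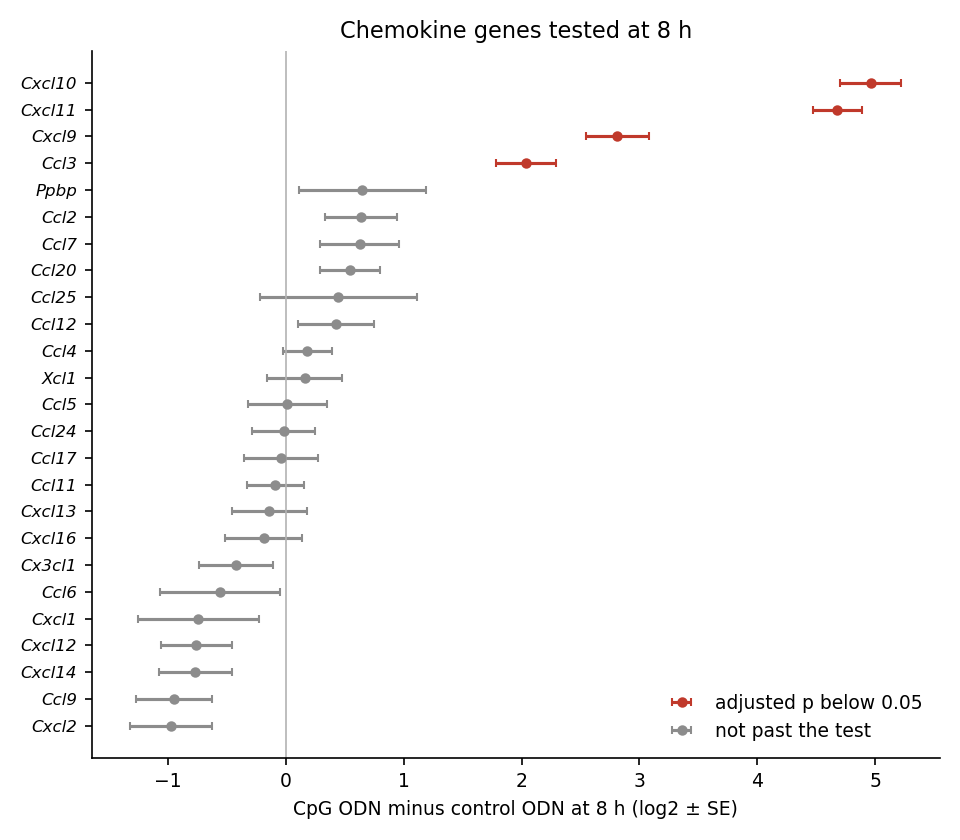
CpG ODN minus control ODN at 8 h (log2, with SE bars) for the 25 chemokine genes tested, in order of the difference; red marks an adjusted p below 0.05. Cxcl10, Cxcl11, Cxcl9 and Ccl3 stand apart on the right, and the other 21 lie between -0.97 and 0.65.

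Of the interferon genes, Ifng rose at 8 h. Ifng, which encodes interferon-gamma, had ratios of 2.79, 4.01 and 4.10 with CpG ODN at 8 h, against 2.22, 2.65 and 2.80 with control ODN and 2.50, 1.99 and 2.90 in medium. The groups overlapped at 1 CpG ODN array. It rose by 1.08 ± 0.32 against control ODN (2.11-fold, adjusted p = 0.027) and by 1.17 ± 0.32 against medium (adjusted p = 0.0136), while at 4 h it differed from control ODN by 0.11 ± 0.28 and at 2 h by -0.24 ± 0.28 (adjusted p = 1 each). Ifnb1, interferon-beta, differed by 0.13, 0.21 and 0.54 at 2, 4 and 8 h, and none passed (adjusted p = 0.173 at 8 h). Ifnar1, a chain of the type I interferon receptor, fell by 0.67 ± 0.18 at 8 h against control ODN (adjusted p = 0.0144). Against medium at 8 h, 2 of the 8 interferon and receptor genes tested rose, Ifng among them, and 0 fell. Of all 9478 genes tested there, 536 rose and 579 fell. The call of Ifng against control ODN was lost without repeat 2 or 3 of CpG ODN or repeat 1 or 2 of control ODN (adjusted p up to 0.166), and that of Ifnar1 without repeat 2 or 3 of CpG ODN or repeat 2 of control ODN (up to 0.0729). Both calls were also lost when the fit held the compared groups alone (adjusted p = 0.113 for Ifng and 0.0946 for Ifnar1). That of Ifnar1 was lost with quantile normalization too (adjusted p = 0.266). Of the 8 interferon and receptor genes tested at 8 h, Ifng and Ifnar1 were the only genes called against control ODN, where 10% of all genes were.

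Several transcription factors of the interferon pathways rose at 8 h. Of 10 JAK, STAT and IRF genes tested, 5 rose and 0 fell, with a median of 0.61, where 4.55% of all genes rose. Stat2, part of the type I interferon complex, rose by 2.33 ± 0.27 (adjusted p = 2.83e-07). Irf1, an interferon-gamma target and an activator of interferon-inducible genes, differed by -0.24 at 2 h and 0.83 ± 0.25 at 4 h (adjusted p = 0.408) and rose by 1.72 ± 0.29 at 8 h (adjusted p = 0.000116). From 2 h to 8 h its difference grew by 1.96 ± 0.39 (adjusted p = 0.00178). Irf4, a factor of activated B cells, rose by 1.36 ± 0.31 (adjusted p = 0.00325), and Stat3 and Irf8, named after their values were seen, were the other two; Irf8 lost its call without any of 3 arrays (adjusted p up to 0.0739) and Stat3 without either of 2 (up to 0.0852).

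Tnf and Nfkbiz, both known targets of NF-kB, passed at all 3 times. Tnf was higher in CpG ODN cultures by 2.28 ± 0.24 at 2 h, 2.97 ± 0.24 at 4 h and 2.51 ± 0.27 at 8 h, with adjusted p of 6.53e-07, 2.81e-09 and 1.04e-07. Nfkbiz, a nuclear IkB protein, was higher by 1.91 at 2 h, 2.27 at 4 h and 2.31 at 8 h, with adjusted p of 3.7e-07, 3.02e-09 and 6.72e-09. Nfkbia, the IkB-alpha inhibitor and a target of NF-kB, was called at 4 h (1.21) and at 8 h (1.15 ± 0.26, adjusted p = 0.00393). The 4 h call was lost without repeat 3 of control ODN (adjusted p = 0.0602) and with the compared groups alone (adjusted p = 0.0863). Of the NF-kB subunits and inhibitors 1 of 8 rose at 2 h, 2 of 8 at 4 h and 2 of 9 at 8 h. Of all genes 0.043%, 0.384% and 4.55% rose at these times. Of the 7 genes of the TLR9 list tested at 8 h, 1 rose, where 4.55% of all genes did: Myd88, its adaptor, by 1.41 (adjusted p = 2e-04).

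Of the lists used here, those of interferon-inducible genes had the largest shares called at 8 h. Of 12 interferon-inducible GTPases 10 rose and 0 fell, with a median of 2.46, where 4.55% of all genes rose. Of 21 genes of the type I interferon response 16 rose and 0 fell, with a median of 2.43, against -0.12 over all genes. At 4 h 2 of 13 and 2 of 20 rose, where 0.384% of all genes did. Among them were Gbp2, by 1.03 ± 0.22 (adjusted p = 0.0164), and Ifit1, by 1.71 ± 0.20 (adjusted p = 2.59e-06). The call of Gbp2 was lost without any of 4 arrays (adjusted p up to 0.162) and with the compared groups alone (adjusted p = 0.167). At 2 h 0 of 13 and 0 of 20 passed in the limma fit, and 0 of each had an unadjusted p under 0.05. Of all genes tested at 2 h, 213 of 9302 had such a p. At 8 h Ifit3 and Ifit1, which bind viral RNA, were higher by 4.75 ± 0.32 and 4.43 ± 0.23 (adjusted p = 4.78e-12 and 1.6e-14), close in size to Cxcl10. Gbp2, a guanylate-binding protein induced by interferon-gamma, was higher by 3.80 ± 0.25 (adjusted p = 2.95e-12).

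Of 15 Th1 and NK effector genes, 4 rose at 8 h and 0 fell, with a median of 0.13, where 4.55% of all genes rose. Il12b, a subunit of interleukin 12 that drives interferon-gamma production, was higher by 3.00 ± 0.36 (adjusted p = 1.04e-06) and was also called at 4 h, by 2.85. Its 8 h difference rests on 2 measured CpG ODN arrays. Tbx21, the T-bet factor, which controls Cxcr3 in T cells, was higher by 2.36 ± 0.36 (adjusted p = 3.72e-05), and Il15ra, which presents interleukin 15, by 1.97 ± 0.25 (adjusted p = 2.84e-06). Gzmb, the cytotoxic protease granzyme B, was the other, named after its value was seen.

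The 5 genes whose levels were most like each ligand's over the arrays are given with Pearson's r. For Cxcl10 they were Ifit1 (r = 0.95 over 30 arrays), Ifit3 (0.95), the RNA sensor gene Ifih1 (0.94), the cytokine gene Il6 (0.94) and Cmpk2 (0.93). For Cxcl11 they were the nucleic acid sensor gene Zbp1 (0.96 over 31 arrays), Gbp2 (0.95), Ifit1 (0.95), Spag16 (0.95) and Ifih1 (0.94). For Cxcl9 they were Asb13 (0.93 over 25 arrays), the RNA receptor gene Tlr7 (0.92), Gbp8 (0.92), Irgm1 (0.91) and Gbp2 (0.91 over 32 arrays). These likenesses rest on the same treatments and times, and over the 9 group means only 1, 2 and 2 of the 5 genes were again among the 5 most like Cxcl9, Cxcl10 and Cxcl11.

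Among the genes tested along this stretch of chromosome, the ligands had the largest differences. Of 12 RefSeq protein-coding genes around the cluster, 6 on each side, 7 were tested at 8 h and 1 passed, where 10% of all genes did. Sdad1, next to Cxcl9 on the side away from Cxcl10, was higher by 1.61 ± 0.21 (adjusted p = 3.91e-06), and Nup54, beyond Cxcl11, stood at 0.66 ± 0.24 (adjusted p = 0.0773). Art3, whose annotated span overlaps the cluster, has no value on these arrays.

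**Figure D4:**
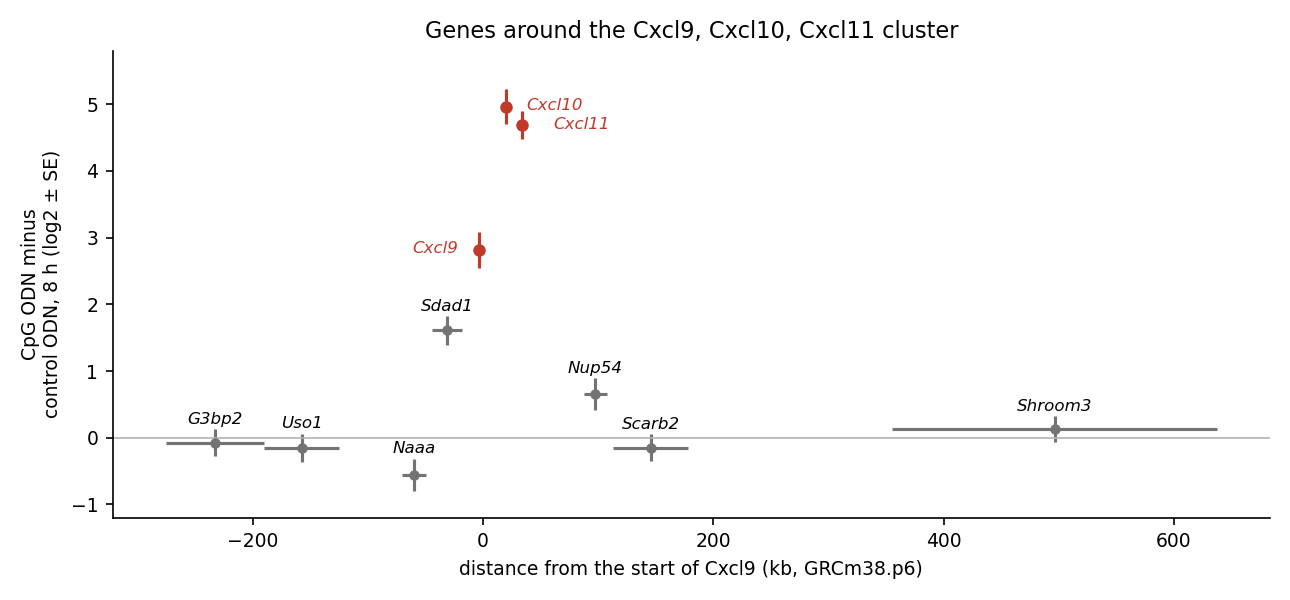
CpG ODN minus control ODN at 8 h (log2, vertical SE bars) against distance from the start of Cxcl9 in kilobases; horizontal bars are gene spans, red the ligands and grey the 7 neighbours with a value. Cxcl10 and Cxcl11 stand highest, then Cxcl9 at 2.81 and Sdad1 at 1.61, and the other 6 neighbours lie between -0.56 and 0.66.

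The cultures held many cell types, and in such bulk samples fewer cells of a type and less RNA per cell cannot be told apart. Most markers of spleen cells were above the reference: the median ratio to the reference over all arrays was 2.90 for 9 B cell markers, 1.68 for 10 T cell markers and 1.21 for 7 NK cell markers, against -0.54 for endothelial and -0.16 for non-splenic ones. The medians for plasmacytoid dendritic cells (3 genes, -0.25) and for platelets and megakaryocytes (5 genes, -0.20) were no higher than the non-splenic median. The 3 plasmacytoid dendritic cell genes ranged from -2.72 to 1.73. Beside the rise of the ligands at 8 h, the median ratio of the T cell markers per array was 0.58 to 1.24 with CpG ODN. It was 1.58 to 2.25 with control ODN and 1.68 to 2.52 in medium. Against control ODN 4 of 10 fell, where 5.45% of all genes tested did. Against medium 1 of 10 fell (median difference -0.48), where 579 of 9478 genes did. The B cell markers stood at 2.15 to 2.54 with CpG ODN, against 2.79 to 3.32 with control ODN and 1.84 to 3.43 in medium, which overlapped. Against control ODN 2 of 9 fell, where 5.45% of all genes did, and against medium 2 of 9. At 2 h the B cell markers already stood at 1.985 to 2.687 with CpG ODN, against 2.849 to 3.341 with control ODN, and at 4 h these groups overlapped. Markers of monocytes and macrophages, known makers of these chemokines, had array medians of 0.06 to 0.54 at 8 h with CpG ODN. With control ODN they were -0.27 to 0.98, which overlapped. Yet the median of the 9 tested differences of these markers was -0.61, near those of the T cell (-0.76) and B cell (-0.68) markers. The neutrophil (-0.67) and erythroid (-0.57) markers had medians near it too, while that of the NK cell markers was 0.08. Of the 9 monocyte and macrophage markers 1 rose, 2 fell and 4 had an unadjusted p under 0.05, where 2104 of 9494 genes had. Of 5 dendritic cell markers 0 passed in the limma fit. Of 3 plasmacytoid dendritic cell markers 1 rose, where 4.55% of all genes did. The array medians of these 3 stood at -0.57 to -0.20 with CpG ODN, against -0.14 to -0.04 with control ODN and -0.588 to 0.025 in medium. Within CpG ODN cultures from 4 h to 8 h, 5 of 10 monocyte and macrophage markers fell and 1 rose (median difference -0.79, against -0.05 over all genes), 3 of 7 neutrophil markers fell (-2.21) and 2 of 5 erythroid markers fell (-0.44), where 4.07% of all genes fell. Between 2 h and 8 h, 3 of 9 monocyte and macrophage markers fell with control ODN (median difference -0.35) and 3 of 10 in medium (-0.55). Of 7 neutrophil markers 1 fell with control ODN (-0.77) and 0 in medium (-0.95). Of 5 erythroid markers 0 fell with control ODN (0.315) and 1 in medium (-0.91). Of all genes, 230 of 9269 and 502 of 9475 fell over those hours. The part of cell composition in the ligands' rise was not tested.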

How the data were processed

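RNA of 33 spleen cell cultures was measured on 2-colour arrays, with Cy5 for the cultures and Cy3 for the common reference per the labels, without dye swaps. The authors deposited 1 log ratio per probe and array, read here as log2 of Cy5 over Cy3 from the values' range, -6.51 to 8.54. How they corrected background, filtered spots and normalized within arrays is not given in the sources used. Any dye effect on a probe enters its level but cancels between groups. Arrays held 7908 to 11129 measured probes; their medians, between -0.085 and 0.024, were set to 0, and the number of arrays limits the precision. The platform annotation gave 1 symbol to 14656 of 16720 probes, several to 6 and none to 2058; the Entrez identifiers of 14361 matched RefSeq's table, which changed 0 symbols. For 511 genes the most complete of several probes was used.

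A group-means model over all 9 groups was fitted with limma 3.58.1 in R 4.3.3 (prior df 5.75, median residual SD 0.35) and tested on simulated data. P-values were Benjamini-Hochberg adjusted over all genes tested, each with at least 2 measured arrays per compared group; "called", "rose" and "fell" mean an adjusted p below 0.05. Errors of differences are SE. Exact tests used SciPy 1.17.1.

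Members, gene lists and marker lists were chosen with earlier results of these data known, so list counts are descriptions. Genes were named by a rule: the members, Cxcr3, Dpp4, Ifng, Ifnb1, Irf1 and Tnf, and a gene not reported here; per list and time up to 3 called genes of smallest p, or the gene of smallest p; the 5 genes of highest r per member; and the 2 neighbours of largest difference. Alternatives were quantile normalization, no centring, only the compared groups in the fit, array weights, a replicate block, the mean of a gene's probes, unnamed probes tested too, genes measured on every compared array, 4 arrays of a lower database number left out, and each array left out in turn.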

Additional observations from a re-analysis of the deposited data

Results flagged for a closer look

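The CpG ODN response of each ligand differed between times by the limma test of the change itself. For Cxcl9 the difference from control ODN grew by 2.476 from 4 h to 8 h (adjusted p = 6.98e-05) and from 2 h to 8 h by 2.683 (adjusted p = 7.56e-06). For Cxcl10 it grew over the same spans by 3.591 (adjusted p = 1.25e-07) and 4.677 (adjusted p = 2.1e-10). For Cxcl11 it grew by 3.822 (adjusted p = 3.08e-10) and 4.453 (adjusted p = 1.46e-11). The 8 h arrays of CpG ODN were higher than every array of the other treatments in 3 of 3 cases for each gene. The share of all genes whose arrays stood clear in this way was not counted. By Dixon's test no array stood far from the others of its group among 21 groups of 4, where chance flags about 1 in 20. These were the groups of the 3 ligands and Cxcr3 with 4 measured arrays. Groups with fewer, all those of 8 h among them, were not looked at.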

How the results depend on the processing

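Over settings other than leaving out an array, 396 of 403 values of the members kept their side of the threshold. Over leaving out each array 402 of 417 did. These counts do not cover the direction of differences that were not called, and some of those changed sign. Leaving out an array, the 2 h difference of Cxcl9 from control ODN ran between -0.143 and 0.39. All 8 h calls of the members held in every setting. When the fit held the compared groups alone, the 4 h differences from control ODN missed the threshold for Cxcl10 (1.371, adjusted p = 0.0838) and Cxcl11 (0.86, adjusted p = 0.477), as did that of Cxcl10 from medium (1.462, adjusted p = 0.099); with array weights that of Cxcl11 from medium passed (0.778, adjusted p = 0.0222). The added comparison of 4 h with 2 h in CpG ODN cultures lost its calls of Cxcl10 (1.016, adjusted p = 0.142) and Cxcl11 (0.764, adjusted p = 0.21) in the same kind of fit, and that of Cxcl11 without the arrays of lower number (0.687, adjusted p = 0.158). Leaving out an array, the 4 h difference of Cxcl11 from control ODN ran between 0.69 and 0.96. Fewer residual degrees of freedom go with the fits of only the compared groups; other causes were not tested. For pairs with Cxcl11 at 2 h, the response difference without the arrays of lower number was not run, since 1 control ODN array was left.

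Of 48 calls of other named genes against control ODN, 10 were lost without some array and 9 under another setting, in a check added after the data were seen.

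Counts of all genes moved more. For CpG ODN against control ODN, 4 were called at 2 h (4 to 10 leaving out an array), 37 at 4 h (19 to 39; 19 without repeat 3 of control ODN, 22 without repeat 3 of CpG ODN; 9 with the compared groups alone, 60 with array weights) and 949 at 8 h (538 to 872; 538 and 592 without repeats 2 and 3 of CpG ODN, 613 without repeat 2 of control ODN; 564 with the compared groups alone). For CpG ODN against medium, 4 were called at 2 h (4 to 14; 7 with quantile normalization, 15 with weights), 21 at 4 h (16 to 24; 5 with the compared groups alone, 56 with weights, 12 without the 4 arrays of lower number) and 1115 at 8 h (680 to 1377; 680 without repeat 2 of CpG ODN, 711 without repeat 2 of medium; 315 with the compared groups alone). For control ODN against medium, 0 were called at each time (0 to 4, 0 and 0 to 1), and 1 at 4 h with the compared groups alone. Of changes of the response, 1 was called from 2 h to 4 h (0 to 6; 5 with weights, 0 without the arrays of lower number and 0 over genes measured on every array), 197 from 4 h to 8 h (109 to 212; 98 with the compared groups alone, 435 with weights) and 298 from 2 h to 8 h (199 to 322; 458 with weights).

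Repeat numbers were checked for pairing through the correlation of arrays' deviations from their group means. Same-numbered pairs ran between -0.141 and 0.645 at 2 h (median 0.169), -0.275 and 0.615 at 4 h (0.326) and -0.028 and 0.56 at 8 h (0.402), and 6 of 12, 8 of 12 and 6 of 9 exceeded 0.1; of differently numbered pairs 8 of 36, 10 of 36 and 2 of 18 did, with medians of -0.1, -0.128 and -0.143. Same-numbered arrays thus deviated together more often, but every pair exceeded 0.1 only for control ODN against medium at 8 h, where r was 0.402 to 0.56 and 6 of 6 arrays correlated best with their own number. The fits without a block were kept as the main ones, and the shared numbers remain a hint from the data. With a replicate block the calls were 1489 for CpG ODN against control ODN at 8 h, 7, 33 and 1698 against medium at 2, 4 and 8 h, 1 for control ODN against medium at 8 h, and 325 and 524 for the response at 8 h against 4 h and 2 h. The block changed no call of a member in the planned comparisons.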
